A study of Rattus norvegicus with 12 samples.

Results

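Hoxa5, Hoxa9, Hoxa10, Hoxd8 and Hoxd9 are 5 of the 22 Hox genes, and of 14218 named genes in all, that were measured on arrays of rat stem cell lines and embryonic fibroblast cultures. They were taken by gene symbol and had been chosen by their differences in signal between lines on these same arrays, so their own values are given here as a description and without a test. Each of the 5 was represented by 1 probe set, a group of short oligonucleotides on the array that together read 1 transcript. Those were 1370969_at for Hoxa5, 1382612_at for Hoxa9, 1398398_at for Hoxa10, 1374057_at for Hoxd8 and 1383492_at for Hoxd9. Of the other 17 Hox genes on the array, 8 passed a filter on low levels and could be tested, which makes 13 Hox genes among the 10510 genes tested.

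Hox genes encode homeodomain transcription factors that lie side by side in clusters, and their order in a cluster follows the order in which they are switched on along the head-to-tail axis of the embryo. Genes of low number act towards the head and genes of high number towards the tail and, in the Hoxa and Hoxd clusters, along the limb. In embryonic stem cells the clusters are mostly silent under Polycomb repression, whereas fibroblasts in culture keep a combination of active Hox genes that reflects the body site they came from.

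RNA from 6 lines or cultures was hybridised to 12 single-colour Affymetrix arrays, 2 for each, in a study that set rat iPS cells beside rat ES cells. A1 and A2 are lines of induced pluripotent stem (iPS) cells of the FHH rat strain, and DAC8 and DAC2 are embryonic stem (ES) cell lines for which the labels give no strain. REF1 and REF2 are embryonic fibroblast (EF) cultures from FHH embryos of stage e14.5. The iPS and ES cells were collected 5 days after passage and grown in 2i medium, a medium with a pair of kinase inhibitors that holds stem cells undifferentiated, and the fibroblasts were collected 6 days after passage in MEF medium. The protocols also describe iPS lines on mouse feeder fibroblasts treated with mitomycin C, in a medium with LIF. How many mouse cells remained in the RNA is not given. By their labels the iPS and ES lines carried the stem cell proteins Sox2, Oct4, Nanog and SSEA-1, and about 1000000 cells and 100 ng of RNA were used.

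Values are log2 signals, so a difference of 1 is 2-fold. A level under 5 was treated as not shown to be above background, and 53.6% to 54.6% of the 31099 probe sets of an array were at 5 or more. A difference with 1 side under 5 therefore sets a measured level against one that may be background, and no order is read among levels that all lie under 5. Levels are compared between arrays for the same gene and not between genes, because probe sets differ in how brightly they report. In RNA from whole cultures, fewer cells of a type and less RNA per cell cannot be told apart. Nothing in the labels tells if both arrays of 1 line were from different cultures, so p-values measure only the spread between arrays, which may be technical.

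Markers of fibroblasts and of pluripotent cells went against the labels of DAC8 and REF2, and markers of pluripotent and neural cells against those of A1 and A2. All 8 fibroblast markers, among them the collagen genes Col1a1, Col1a2 and Col3a1, were at 5 or more on the arrays labelled DAC8, an ES line, and 1 of 8 was on the arrays labelled REF2, a fibroblast culture. The summed level of the 8 was 88.8 to 89.0 on the DAC8 arrays and 92.5 to 93.1 on the REF1 arrays. It was 32.8 to 33.5 on the DAC2 arrays and 31.8 to 32.4 on the REF2 arrays. Of 6 pluripotency markers measured, 5 were at 5 or more on the DAC2 arrays and 5 on the REF2 arrays (Esrrb, Sox2, Tfcp2l1, Klf4 and Epcam), against 1 (Klf4) on the DAC8 and REF1 arrays. On the arrays labelled A1 and A2, 2 of those 6 (Sox2 and Klf4) and all 7 neural markers were at 5 or more. Esrrb, Tfcp2l1, Nr0b1 and Epcam were under 5 there. Of the 7 neural markers, 4 (Rtn1, Map2, Gap43 and Stmn3) were in DAC8 and REF1, and 1 (Rtn1) in DAC2 and REF2. Of markers of other cells, 2 of 3 of cartilage (Acan and Col2a1) were at 5 or more in DAC8 and REF1. Of 3 endothelial markers, Pecam1 was at 5 or more in DAC2 and REF2 and Tek in A1 and A2. Of 4 markers of macrophages and blood, Cd68 was in A1 and REF2, and of 3 muscle markers, Des was in all 6 lines. All other markers of these lists averaged under 5 in every line. Over all genes, DAC8 correlated at 0.988 with REF1 and at 0.614 with DAC2, and DAC2 correlated at 0.974 with REF2. All results below keep the groups as labelled. Line names, and the names iPS, ES and EF, stand for the arrays so labelled and not for a cell type shown by the markers.

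The 5 Hox genes, which had been chosen by their differences between lines on these arrays, gave 2 patterns that followed their clusters. The Hoxa genes were at 5 or more in DAC8, REF1 and DAC2 and under 5 in REF2, A1 and A2. The Hoxd genes were at 5 or more in all 4 ES and EF lines, REF2 included, and under 5 in A1 and A2. DAC2 and REF2, which shared markers and correlated closely, therefore differed in the 3 Hoxa genes by 2.72 to 6.32 log2 units, and DAC8 and REF1 differed in the 5 by at most 0.51. Of the other Hoxd genes on the array, Hoxd4 shared the pattern of Hoxd8 and Hoxd9 in part and the rest did not.

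**Figure D1:**
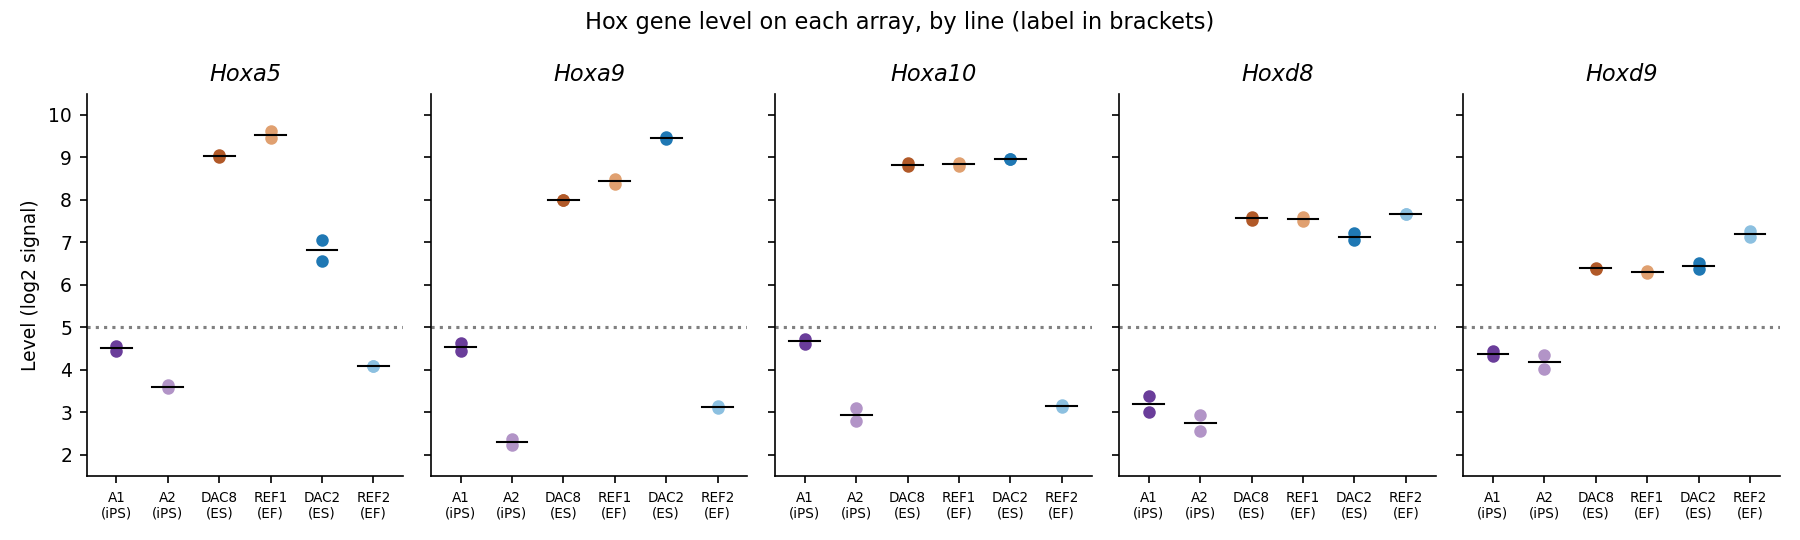
Log2 signal of the 5 Hox genes on each of the 12 arrays, with lines on the x axis, 1 point per array and the line mean as a bar; the dotted line at 5 is the level under which a signal was not taken as above background. The Hoxa genes lie under it in REF2 and above it in DAC2, while the Hoxd genes lie above it in both.

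Hoxa5, a gene of the middle of the Hoxa cluster that mouse embryos need for normal lung and neck-to-thorax patterning, gave 4.45 and 4.57 in A1 and 3.63 and 3.58 in A2. It gave 9.05 and 9.003 in DAC8 and 9.61 and 9.46 in REF1, and 7.06 and 6.56 in DAC2 and 4.08 and 4.09 in REF2. REF1 was the highest line and DAC8 the next, with DAC2 between these and the 3 lines under 5, and no neighbours among the lines above 5 overlapped. The SD of the 2 DAC2 arrays was 0.35, the widest of the 6 lines for this gene.

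Hoxa9, which in mouse sustains blood stem cells and helps pattern the rear trunk and limb, gave 4.43 and 4.62 in A1 and 2.22 and 2.36 in A2. It gave 8.003 on both arrays in DAC8 and 8.49 and 8.38 in REF1, and 9.47 and 9.43 in DAC2 and 3.15 and 3.10 in REF2. DAC2 was the highest line, above REF1 by 1.01, and DAC8 followed REF1. The order is thus not that of Hoxa5, for which DAC2 was the lowest of the 3 lines above 5.

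Hoxa10, a neighbour of Hoxa9 that patterns the lumbar vertebrae and the uterus in mouse, gave 4.601 and 4.73 in A1 and 3.10 and 2.79 in A2, all under 5. It gave 8.79 and 8.87 in DAC8 and 8.80 and 8.86 in REF1, which overlapped. It gave 8.97 and 8.95 in DAC2 and 3.18 and 3.14 in REF2, so that DAC2 lay 0.13 above REF1 without overlap and REF2 under 5 with the iPS lines.

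Hoxd8, a gene of the middle of the Hoxd cluster, gave 3.01 and 3.38 in A1 and 2.94 and 2.55 in A2. It gave 7.53 and 7.60 in DAC8 and 7.59 and 7.50 in REF1, which overlapped, and 7.05 and 7.21 in DAC2 and 7.66 and 7.67 in REF2. The 8 ES and EF arrays thus lay within 0.61 of each other, far above the 4 iPS arrays. REF2, the line in which the Hoxa genes were lowest of the ES and EF lines, was here the highest.

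Hoxd9, which with its Hoxa and Hoxb counterparts patterns the rear trunk and forelimb in mouse, gave 4.33 and 4.44 in A1 and 4.35 and 4.02 in A2. It gave 6.38 and 6.39 in DAC8 and 6.34 and 6.29 in REF1, and 6.51 and 6.37 in DAC2 and 7.26 and 7.12 in REF2. REF2 was again the highest line, and DAC2 and DAC8 overlapped.

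Hoxa9 and Hoxd9 are paralogues, that is, genes of the same number in different clusters, and their promoters are shown because they had opposite patterns in REF2 while sharing short stretches of sequence. Both are RefSeq sequence of the build GRCr8, from 250 bases before to 50 bases after the gene start, read in the direction of transcription. Hoxa9 lies on the minus strand at chr4:82656999-82657298 and Hoxd9 on the plus strand at chr3:80007756-80008055. Capitals mark TGATTTAC, CACGTG and CCAAT on the strand shown, in this order in both. CACGTG is an E-box, and CCAAT is the CCAAT box.
Hoxa9 promoter: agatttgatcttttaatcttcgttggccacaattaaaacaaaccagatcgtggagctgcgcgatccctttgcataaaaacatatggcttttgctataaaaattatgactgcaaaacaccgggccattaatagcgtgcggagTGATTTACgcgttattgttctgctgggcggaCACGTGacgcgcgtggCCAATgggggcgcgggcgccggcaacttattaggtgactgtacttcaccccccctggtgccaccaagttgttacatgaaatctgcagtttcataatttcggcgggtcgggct
Hoxd9 promoter: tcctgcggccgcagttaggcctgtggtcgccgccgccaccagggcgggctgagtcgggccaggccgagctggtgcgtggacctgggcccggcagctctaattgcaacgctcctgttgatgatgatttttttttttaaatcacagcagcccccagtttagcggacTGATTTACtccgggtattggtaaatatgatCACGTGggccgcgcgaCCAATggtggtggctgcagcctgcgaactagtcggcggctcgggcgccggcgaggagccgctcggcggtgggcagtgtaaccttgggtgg

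The 3 stretches started 109, 78 and 62 bases before the start of Hoxa9 and 86, 56 and 40 bases before the start of Hoxd9. The E-box and the CCAAT box stood 16 bases apart in both promoters, counted from first base to first base, and TGATTTAC stood 31 bases before the E-box in Hoxa9 and 30 in Hoxd9. Searched on both strands, each by itself, TGATTTAC was in 0.49% of 33469 promoters of this length, CACGTG in 6.42% and CCAAT in 37.5%. All 3 were in 9 promoters (0.0269%), and of 21 Hox promoters of 20 genes only those of Hoxa9 and Hoxd9 held all 3. Those 20 were part of 39 annotated Hox genes, with Hoxb1 and Hoxc4 the only ones of the Hoxb and Hoxc clusters. The paralogues Hoxb9 and Hoxc9 were thus not searched, so the stretches may not be particular to Hoxa9 and Hoxd9. The stretches were picked after both promoters had been read, so these shares are a description and the matches are not sites. A CCAAT box also stood on the opposite strand of the Hoxd9 promoter, 71 bases before the start.

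Promoters of 4 of the 5 genes were matched, with 2 for Hoxa10. They differed in CG dinucleotides, the sites of DNA methylation, of which Hoxd8 held 49, Hoxd9 27, Hoxa9 21 and the Hoxa10 promoters 18 and 22, against a median of 7 over all promoters. The bases G and C made up 79% of the Hoxd8 promoter and 49% of the Hoxa9 promoter. TATAAA, the core of a TATA box, was on the strand of transcription in Hoxa9 and in 1 Hoxa10 promoter and on the other strand in the second Hoxa10 promoter, and was in neither Hoxd promoter. It was in 14.2% of all promoters on either strand.

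DAC8 and REF1, labelled as ES and fibroblast, gave nearly the same levels of the Hoxd genes and of Hoxa10. The difference, DAC8 minus REF1, was -0.0014 ± 0.09 log2 units for Hoxa10, 0.02 ± 0.14 for Hoxd8 and 0.08 ± 0.11 for Hoxd9 (SE, n = 2 arrays each). Under 21 other settings Hoxa10 lay between -0.04 and 0.04 and Hoxd8 between -0.02 and 0.07, so their signs are not settled. Hoxa5 was lower in DAC8 by 0.51 ± 0.13 and Hoxa9 by 0.43 ± 0.08. In the fit across all genes 2 of the 5 passed (Hoxa5 and Hoxa9, both lower), beside 20.3% of the 10510 genes (11.2% higher and 9.09% lower), and nothing is read from that count since these differences took part in choosing the genes.

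Of the 8 other Hox genes tested between DAC8 and REF1, 1 passed, against 20.3% of all genes, and none by 2-fold or more, against 1.24%. The 1 was Hoxa7, which lies between Hoxa5 and Hoxa9, with 6.65 and 6.84 in DAC8 and 7.68 and 7.55 in REF1. It fell by 0.87 ± 0.12 log2 units in DAC8 (limma, Benjamini-Hochberg adjusted p = 0.00153). It is named after its value was seen, as its difference is under 1. The other 7 gave adjusted p-values of 0.232 to 0.912 in limma and differences from -0.29 to 0.20. Hoxd10, next to Hoxd9, gave 9.10 and 9.18 in DAC8 and 8.99 and 8.89 in REF1, and Hoxb2 gave 7.85 and 8.91 in DAC8 and 8.16 and 8.32 in REF1. The count of all genes called was 2136, and it was 1192 without DAC8 replicate 1, 1330 without DAC8 replicate 2 and 1263 without REF1 replicate 2. Without DAC8 replicate 1, 2 of 8 other Hox genes passed.

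DAC2 and REF2 differed in the Hoxa genes and much less in the Hoxd genes, in the opposite direction. The difference, DAC2 minus REF2, was 2.72 ± 0.13 log2 units for Hoxa5, 6.32 ± 0.08 for Hoxa9 and 5.80 ± 0.09 for Hoxa10 (SE, n = 2 arrays each), with REF2 under 5 for all 3. Without 1 of the DAC2 arrays the Hoxa5 difference was 2.47 or 2.97. Hoxd8 was lower in DAC2 by 0.53 ± 0.14 and Hoxd9 by 0.75 ± 0.11, with both lines above 5. All 5 passed in the fit across all genes, 3 higher and 2 lower in DAC2, beside 47.5% of all genes (21.8% higher and 25.7% lower), and nothing is read from that count.

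**Figure D2:**
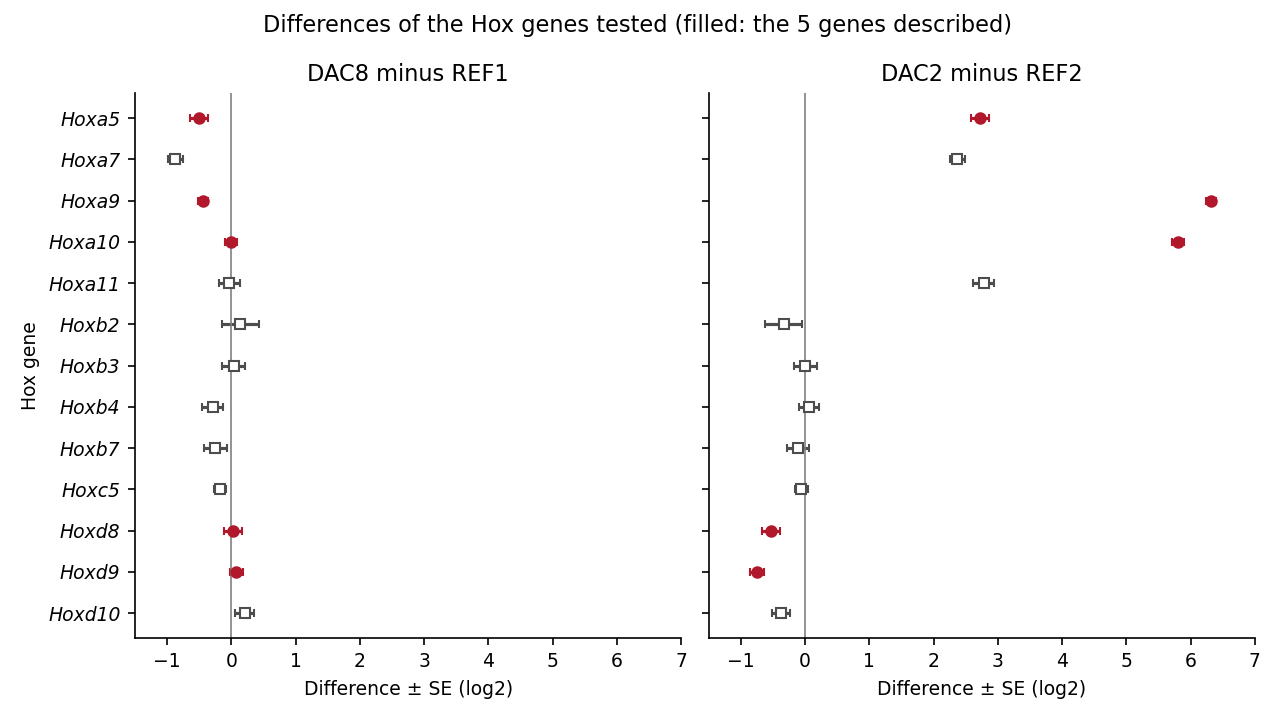
Difference in log2 signal for the 13 tested Hox genes, DAC8 minus REF1 and DAC2 minus REF2, with bars for the standard error of the limma fit (2 arrays in each line). For DAC2 minus REF2 the 5 Hoxa genes lie between 2.37 and 6.32 and the other 8 between -0.75 and 0.06, while DAC8 minus REF1 lies between -0.87 and 0.20 for all 13.

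Hoxa11 and Hoxa7, the other Hoxa genes counted here, went the same way between DAC2 and REF2. Hoxa11, which lies beyond Hoxa10 and patterns the forearm and lower leg in mouse, gave 7.46 and 7.31 in DAC2 and 4.35 and 4.86 in REF2. Hoxa11 rose by 2.78 ± 0.17 log2 units in DAC2 (limma adjusted p = 3.37e-06). Hoxa7 gave 7.32 and 7.24 in DAC2 and 5.08 and 4.74 in REF2 and rose by 2.37 ± 0.12 in DAC2 (limma adjusted p = 1.66e-06). These were the only 2 of the 8 other Hox genes that passed, against 47.5% of all genes, and both passed by 2-fold or more in that direction, against 1.02% of all genes and 3.9% in either direction. Both kept their calls under all 21 other settings, with adjusted p-values up to 0.000702 for Hoxa11 and 0.000484 for Hoxa7.

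Outside the Hoxa cluster no other tested Hox gene passed between DAC2 and REF2. Hoxb3 gave 5.42 on average in both lines and Hoxb4 5.40 in DAC2 and 5.34 in REF2, with differences of 0.01 ± 0.18 and 0.06 ± 0.16 (limma adjusted p = 0.985 and 0.779). Hoxb2, Hoxb7, Hoxc5 and Hoxd10 averaged under 5 in both lines, with limma adjusted p-values of 0.377, 0.638, 0.658 and 0.0609. Hoxd10 gave 3.59 and 4.15 in DAC2 and 4.19 and 4.30 in REF2, although its neighbours Hoxd8 and Hoxd9 were above 5 in both. The antisense transcript Hoxa11-as, which is not counted as a Hox gene here, averaged 6.85 in DAC2 and 4.84 in REF2 and rose by 2.01 ± 0.18 (limma adjusted p = 3.38e-05). Whether its probe set and that of Hoxa11 read strands apart was not tested. Hoxa3l1, likewise not counted as a Hox gene, gave 6.245 and 6.247 in DAC2 and 5.62 and 5.54 in REF2, so that REF2 was above 5 for it, and it rose by 0.67 ± 0.12 in DAC2 (limma adjusted p = 0.00222). In DAC8 it gave 6.26 and 6.00, against 5.77 and 5.41 in REF1, and rose by 0.54 ± 0.12 (limma adjusted p = 0.0156), where Hoxa7 fell. That second call was lost without DAC8 replicate 1 or REF1 replicate 2 (adjusted p = 0.105 and 0.0885).

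Counted by cluster, the lines held different sets of the Hox genes on the array at 5 or more, beside 53.6% to 54.6% of all probe sets of an array. The counts include the 5 genes that had been chosen by their differences between lines. A1 and A2 held 1 each, Hoxa7. DAC8 held 17 of the 22 and REF1 17, with all 17 shared. Of the genes on the array, these were all 5 of Hoxa, 5 of 6 of Hoxb, all 4 of Hoxc and 3 of 7 of Hoxd (Hoxd8, Hoxd9 and Hoxd10). DAC2 held 9, which were the 5 of Hoxa, Hoxb3, Hoxb4, Hoxd8 and Hoxd9. REF2 held 5, which were Hoxb3, Hoxb4, Hoxd4, Hoxd8 and Hoxd9. The sets of DAC2 and REF2 thus shared Hoxb3, Hoxb4, Hoxd8 and Hoxd9 and differed by the 5 Hoxa genes on the array and by Hoxd4. Hoxd4 averaged 4.84 in DAC2 and 5.29 in REF2, but its arrays overlapped, at 4.95 and 4.73 in DAC2 and 5.67 and 4.92 in REF2.

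**Figure D3:**
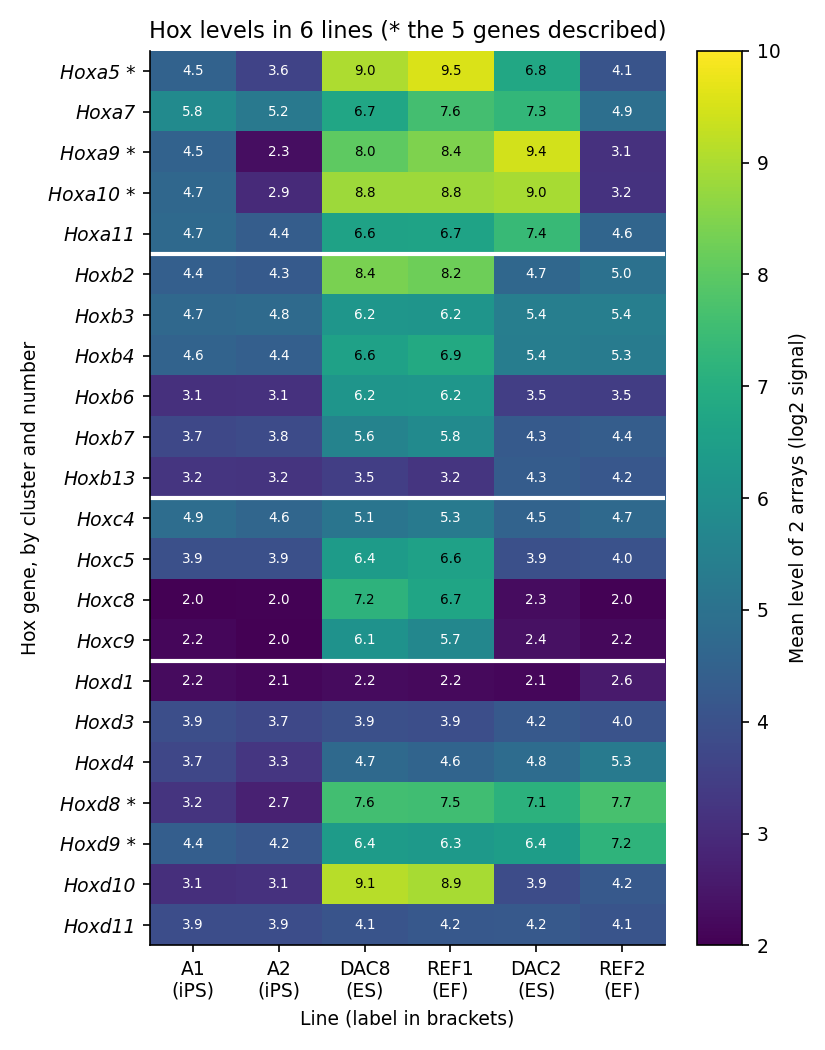
Log2 signal of the 22 Hox genes on the array (rows, by cluster) in each of the 6 lines (columns, mean of 2 arrays), to be read along a row, since levels of different genes are not comparable. A1 and A2 have 1 gene at 5 or more, DAC8 and REF1 have 17, DAC2 has 9 and REF2 has 5.

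In the iPS lines the 5 genes were under 5 on all 4 arrays. For Hoxa5, Hoxa9 and Hoxa10 those arrays lay below all 4 ES arrays but not below all 4 EF arrays, since REF2 was low too. For Hoxd8 and Hoxd9 they lay below all 8 others. All 4 iPS arrays were under all 4 ES arrays for 5 of the 5 genes, beside 18.4% of all genes, and under all 4 EF arrays for 2 of 5, beside 18.4%. Nothing is read from these counts, since differences between lines on these arrays took part in choosing the genes. The 5 genes also passed the level filter only through the ES and EF arrays. The mean of the iPS lines minus DAC2 ran from -6.04 ± 0.07 log2 units for Hoxa9 to -2.16 ± 0.09 for Hoxd9. The same mean minus REF2 was -4.69 ± 0.12 for Hoxd8 and -2.91 ± 0.09 for Hoxd9 (SE, 4 iPS arrays against 2). A1 and A2 were all under 5 for the 5 genes, and no order between them is read.

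The 8 other Hox genes that could be tested were lower in the iPS lines than in DAC8 and REF1. Against DAC8 all 8 fell in the iPS lines by 2-fold or more, beside 15.6% of all genes, and against REF1 all 8 did, beside 15.7%. The change was largest for Hoxd10, at -6.04 ± 0.13 against DAC8 and -5.83 ± 0.13 against REF1 (limma adjusted p = 1.32e-10 and 1.63e-10). Of these 8, Hoxa7 averaged 5.53 over the iPS lines and passed the level filter there too. The others passed it only through the ES or EF arrays in which they are high. Their counts, here and against DAC2 and REF2 below, therefore do not support a difference from the iPS lines. Against DAC2, 6 of 8 passed as lower, beside 42.9% of all genes, of which Hoxb7 and Hoxd10 were under 5 on both sides. The 4 with a side at 5 or more, beside 41.9% of all genes, were Hoxa11, Hoxa7, Hoxb3 and Hoxb4, of which only Hoxa11 and Hoxa7 fell by 2-fold or more, beside 13% of all genes, at -2.84 ± 0.14 and -1.75 ± 0.11 (limma adjusted p = 5.92e-08 and 2.31e-07). Against REF2, 5 of 8 passed as lower, beside 41.4% of all genes, of which Hoxb2, Hoxb7 and Hoxd10 were under 5 on both sides. The 2 with a side at 5 or more, beside 40.6% of all genes, were Hoxb3 and Hoxb4, at -0.68 ± 0.16 and -0.86 ± 0.14 (limma adjusted p = 0.00287 and 0.000285). Hoxa7 rose, beside 40.7% of all genes, by 0.62 ± 0.11 (limma adjusted p = 0.000423), with 5.90 and 5.78 in A1 and 5.33 and 5.11 in A2 against 5.08 and 4.74 in REF2. Of the 5 lower, only Hoxd10 passed by 2-fold or more, beside 14.6% of all genes, at levels under 5 on both sides, and no order is read from it. Hoxa7 was also the 1 of 8 that passed between A1 and A2, beside 1.94% of all genes, at 0.62 ± 0.12 (limma adjusted p = 0.0418). That call was lost without either array of A1, A2, DAC8, REF1 or DAC2, at adjusted p-values of 0.0531 to 0.193, and was kept without either array of REF2.

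Over the 12 arrays the 5 genes, which had been chosen by their differences between lines, correlated more within a cluster than between clusters. Pearson's r was 0.987 between Hoxa9 and Hoxa10, 0.923 between Hoxa5 and Hoxa10, 0.867 between Hoxa5 and Hoxa9 and 0.971 between Hoxd8 and Hoxd9, and it was 0.433 to 0.657 between a Hoxa and a Hoxd gene. The arrays of a line share their cells, so these 12 points are 6 lines, and the values are a description. Of other genes of the Hoxd cluster, Hoxd10, Hoxd1, Hoxd3 and Hoxd11 did not share the pattern of Hoxd8 and Hoxd9, and Hoxd4 shared it in part. Hoxd4 gave 3.24 to 3.73 on the iPS arrays and 4.55 to 5.67 on the ES and EF arrays. Its average was 5 or more in REF2 alone. Hoxd10 was above 8 in DAC8 and REF1 and under 5 in DAC2 and REF2, and Hoxd1, Hoxd3 and Hoxd11 averaged under 5 in all 6 lines. The same measure named the 3 other genes most like each, among 10495 genes that are not Hox genes or Hox transcripts. For Hoxa5 they were Pdzd11, Pdia6 and Maged1 at 0.987, 0.982 and 0.979. For Hoxa9 they were Pusl1, Phka1 and Fam174c at 0.946, 0.934 and 0.933. For Hoxa10 they were Ak5, Slc25a24 and Fam174c at 0.961, 0.946 and 0.944.

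For the Hoxd genes the likeness was closer. Hoxd8 was most like Nid1, which encodes a basement membrane protein, at 0.997, then Cltb, a clathrin light chain, at 0.996 and Iqgap1, a cytoskeletal scaffold, at 0.995. Nid1 averaged 9.31 in A1 and 8.87 in A2, and 11.8 in DAC2 and 12.3 in REF2. Hoxd9 was most like Ctsl, the lysosomal protease cathepsin L, at 0.998, then Cnpy3 at 0.994 and Septin4 at 0.993. Ctsl averaged 10.2 in A1 and 10.1 in A2, and 11.9 in DAC2 and 12.4 in REF2. These genes shared the low iPS lines with Hoxd8 and Hoxd9. Ctsl, Cnpy3, Septin4 and Nid1 were also highest in REF2, whereas Cltb and Iqgap1 were highest in DAC8.

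Among the 3 nearest tested genes on each side of the Hoxa and Hoxd clusters, none changed by 2-fold or more within either pair of lines. Genes that were not tested were passed over, even where they lie closer. Beside Hoxa on chromosome 4 the genes taken were Skap2, Snx10 and Hnrnpa2b1 on one side and Hibadh, Tax1bp1 and Jazf1 on the other. Beside Hoxd on chromosome 3 they were Lnpk, Atp5mc3 and Atf2, and Mtx2, Hnrnpa3 and Nfe2l2. Between DAC2 and REF2, 1 of 12 rose and 4 fell, beside 21.8% and 25.7% of all genes, with a median of -0.10 against -0.00029 over all genes. Hibadh, a mitochondrial enzyme of valine breakdown, fell by 0.71 ± 0.06 in DAC2 (limma adjusted p = 1.69e-05), and Snx10, a sorting nexin, rose by 0.46 ± 0.10 (limma adjusted p = 0.00519). Skap2, an adaptor protein, fell by 0.30 ± 0.10 (limma adjusted p = 0.0343), a call lost without any 1 of the 4 arrays of DAC2 and REF2 (adjusted p = 0.0592 to 0.164). The other 2 falls, named after their values were seen, were Nfe2l2, the oxidative stress regulator NRF2, at -0.22 and Atp5mc3, a subunit of the mitochondrial ATP synthase, at -0.14 (limma adjusted p = 0.0161 and 0.0391). Nfe2l2 did not pass without REF2 replicate 1 or either DAC2 array (adjusted p = 0.0512 to 0.11), and Atp5mc3 without either array of A1, A2, REF2 or DAC2 (adjusted p = 0.054 to 0.141). In DAC8 relative to REF1, 3 of 12 rose, beside 11.2% of all genes, and none fell, beside 9.09%, with a median of -0.0061 against 0.01. They were Snx10 at 0.83 ± 0.10, Nfe2l2 at 0.49 ± 0.06, and Hibadh at 0.20 ± 0.06 (limma adjusted p = 0.00075, 0.000869 and 0.037). The call of Hibadh was lost without A2 replicate 1 or 2, DAC8 replicate 1, REF1 replicate 1 or 2 or DAC2 replicate 1 or 2 (adjusted p = 0.0533 to 0.196). Leaving out 1 array at a time, 1 to 4 neighbours fell and 1 or 2 rose between DAC2 and REF2.

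Hox proteins bind DNA with cofactors of the TALE class, the Pbx, Meis and Pknox families, of which 7 were tested. Between DAC2 and REF2, 2 of 7 rose and 3 fell, beside 21.8% and 25.7% of all genes, with a median of 0.15 against -0.00029 over all genes. Meis2 averaged 6.48 in DAC2 and 7.75 in REF2 and fell by 1.27 ± 0.11 (limma adjusted p = 3.11e-05). Pbx2 averaged 6.66 in DAC2 and 7.62 in REF2 and fell by 0.96 ± 0.07 (limma adjusted p = 1.53e-05). Pknox1 rose by 0.62 ± 0.11 (limma adjusted p = 0.00165), but by 0.19 with an adjusted p of 0.134 when its probe sets were averaged. The other 2 calls, named after their values were seen, were Meis1 at 0.15 and Pbx3 at -0.23 (limma adjusted p = 0.0333 and 0.0462). Meis1 did not pass without any 1 of the 4 arrays of DAC2 and REF2 (adjusted p = 0.0629 to 0.164), and Pbx3 without either array of A2, DAC8, REF1 or DAC2 or without REF2 replicate 1 (adjusted p = 0.0588 to 0.28). In DAC8 against REF1 only Meis1 passed, beside 9.09% of all genes lower, by -0.16 ± 0.05 (limma adjusted p = 0.0495), against a list median of -0.05, and it did not pass without any 1 of the 12 arrays (adjusted p = 0.0663 to 0.218).

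Signals and caudal-type factors that switch on Hox genes along the axis were fewer on the array: of 13 listed, 9 were on it and 5 were tested. Cdx2, a caudal-type factor that activates Hox genes in the rear embryo and is also made in trophoblast, averaged 9.83 in DAC2 and 8.17 in REF2 and rose by 1.66 ± 0.18 (limma adjusted p = 9.18e-05). Gdf11, a growth factor that triggers the trunk-to-tail transition, fell by 0.83 ± 0.06 in DAC2 (limma adjusted p = 1.18e-05). Rara, a retinoic acid receptor, fell by 0.20 ± 0.08 in DAC2 (limma adjusted p = 0.0495), a call lost without either array of A2, DAC8, REF1, REF2 or DAC2 (adjusted p = 0.0524 to 0.239). With Rara, 1 of 5 rose and 2 fell between DAC2 and REF2, beside 21.8% and 25.7% of all genes, at a median of 0.20. Between DAC8 and REF1, Rara rose by 0.43 ± 0.08 and Gdf11 fell by 0.35 ± 0.06 (limma adjusted p = 0.00471 and 0.00484), which is 1 of 5 in each direction, beside 11.2% higher and 9.09% lower among all genes, at a median of 0.30. Gdf11 did not pass there when its probe sets were averaged, at -0.20 with an adjusted p of 0.344.

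Polycomb and trithorax genes, whose proteins keep Hox genes silent or active, changed by under 2-fold within both pairs of lines. Of 22 tested, 3 rose and 6 fell between DAC2 and REF2, beside 21.8% and 25.7% of all genes, with a median of -0.01. Cbx2, a Polycomb subunit that binds methylated histone H3, rose by 0.83 ± 0.08 in DAC2 (limma adjusted p = 5.23e-05). The other 2 that rose, named after their values were seen, were Ezh2, the Polycomb methyltransferase, at 0.35 and Eed, its core partner, at 0.33 (limma adjusted p = 0.00517 and 0.00388), and both passed under all 21 other settings. Phc1, another Polycomb subunit, fell by 0.52 ± 0.09 (limma adjusted p = 0.00173). Phf19, a cofactor of Ezh2, fell by 0.74 ± 0.19 (limma adjusted p = 0.011), a call lost without REF2 replicate 2 or DAC2 replicate 1 (adjusted p = 0.05 and 0.0713). The other 4 falls are also named after their values were seen. Kdm6b, a demethylase that removes the Polycomb mark, gave -0.44 and Jarid2, a Polycomb partner, -0.29 (limma adjusted p = 0.000693 and 0.00298), and both passed under all 21 other settings. Ezh1, a second Polycomb methyltransferase, gave -0.28 and Pcgf2, a Polycomb subunit, -0.22 (limma adjusted p = 0.0248 and 0.0447). Ezh1 did not pass without REF2 replicate 1 or either DAC2 array (adjusted p = 0.0624 to 0.13), and Pcgf2 without either array of A1, REF1 or DAC2 or without REF2 replicate 1 (adjusted p = 0.0543 to 0.259). In DAC8 relative to REF1, 1 rose and 2 fell, beside 11.2% and 9.09% of all genes, with a median of -0.05. Jarid2 fell by 0.48 ± 0.06 in DAC8 (limma adjusted p = 0.000629). Eed fell by 0.25 ± 0.07 and Ash2l, a trithorax subunit, rose by 0.23 ± 0.05 (limma adjusted p = 0.0318 and 0.0177). Neither of these calls held without DAC8 replicate 1 or REF1 replicate 2 (adjusted p = 0.185 and 0.117 for Eed, 0.0982 and 0.105 for Ash2l), and that of Eed was also lost without REF1 replicate 1 (adjusted p = 0.0986).

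Other transcription factors that mark the body region of mesenchyme, of which 15 were tested, gave 1 rise and 3 falls between DAC2 and REF2, beside 21.8% and, with a side at 5 or more, 24.7% of all genes, at a median of -0.01. Another gene passed as lower with both lines under 5. The rise, named after its value was seen, was Tbx3, a limb T-box factor that is also made in rodent ES cells, at 0.66 (limma adjusted p = 0.0256), and it did not pass without any 1 of the 4 arrays of DAC2 and REF2 (adjusted p = 0.066 to 0.11). Pitx1, a hindlimb factor, averaged 4.98 in DAC2 and 6.12 in REF2 and fell by 1.14 ± 0.09 (limma adjusted p = 1.23e-05). Msx2, a homeodomain factor of limb and skull, fell by 0.70 ± 0.18 (limma adjusted p = 0.0116), a call lost without REF2 replicate 2 or DAC2 replicate 1 (adjusted p = 0.0667 and 0.0578) and when its probe sets were averaged, at -0.22 (adjusted p = 0.269). The gene under 5 in both was Twist1, a mesenchyme factor, at -1.16 ± 0.10 (limma adjusted p = 3.24e-05), from which no order is read. The remaining fall was Msx1, likewise named after its value was seen, at -0.19 (limma adjusted p = 0.0455), which did not pass without either array of A1, A2, REF1 or DAC2 or without REF2 replicate 1 (adjusted p = 0.0582 to 0.293). Between DAC8 and REF1, 2 fell, beside 9.09% of all genes, and none rose, beside 11.2%, at a median of -0.15. The 2 falls became 4 without either A1 array, 1 without DAC8 replicate 1 or REF1 replicate 2, and none without DAC8 replicate 2 or REF1 replicate 1. Prrx1, a limb mesenchyme factor, fell by 0.62 ± 0.14 and Msx1 by 0.29 ± 0.07 in DAC8 (limma adjusted p = 0.0157 for both). The call of Prrx1 was lost without DAC8 replicate 1 or 2 or REF1 replicate 1 (adjusted p = 0.0699 to 0.0958) and that of Msx1 without DAC8 replicate 2 or REF1 replicate 1 or 2 (adjusted p = 0.0531 to 0.0969).

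The fibroblast markers moved with the 5 Hox genes between some lines and not between others. In A1 and A2, 1 of 8 markers and none of the 5 genes were at 5 or more, and in DAC8 and REF1 all 8 markers and all 5 genes were. In DAC2, where all 5 genes were at 5 or more, 2 of 8 markers were (Col1a2 at 5.17 and Pdgfrb at 5.197), with Postn, Col1a1, Col3a1, Thy1, Lum and Tagln under 5. In REF2, where only the 2 Hoxd genes were, 1 of 8 markers was (Pdgfrb). Between DAC2 and REF2, 2 of 8 fibroblast markers passed as higher, beside 21.8% of all genes, Postn at 0.34 with both lines under 5 and Col1a2 at 0.37 (limma adjusted p = 0.0418 and 0.042), and the median of the 8 was 0.16. Both calls were lost without either array of DAC8 or REF1, without REF2 replicate 2 or without DAC2 replicate 1, that of Postn also without REF2 replicate 1 and that of Col1a2 without DAC2 replicate 2 (adjusted p = 0.0568 to 0.28). Between DAC8 and REF1, Lum, a proteoglycan gene, fell by 2.62 in DAC8 (limma adjusted p = 3.62e-05) and Col1a1 by 0.68 (limma adjusted p = 0.0351), the second a call lost without any 1 of the 4 arrays of DAC8 and REF1 (adjusted p = 0.0552 to 0.187).

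Markers of other cells also differed within these pairs of lines. Between DAC2 and REF2 the pluripotency genes Klf4 and Esrrb rose by 0.49 and 0.32 (limma adjusted p = 0.000159 and 0.0375), the muscle gene Des rose by 0.38 and the endothelial gene Pecam1 fell by 0.43 (limma adjusted p = 0.0328 and 0.0396). Klf4 passed under all 21 other settings, whereas Esrrb did not pass without any 1 of the 4 arrays of DAC2 and REF2, Des without either REF2 array or DAC2 replicate 2, and Pecam1 without either array of A1, REF1 or REF2 or without DAC2 replicate 2 (adjusted p = 0.0517 to 0.231). The neural gene Map2 passed as lower with both lines under 5. Between DAC8 and REF1 the cartilage gene Acan fell by 1.18 and Klf4 rose by 1.07 (limma adjusted p = 0.00131 and 9.74e-06). Of the neural genes, Map2 fell by 0.59 and Gap43 rose by 0.56 in DAC8 (limma adjusted p = 0.00451 and 0.00705), and all 4 of these calls held under the 21 other settings. Sox2, Tek and Esrrb passed there with both lines under 5. The part of other cells in the Hox levels was not tested.

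**Figure D4:**
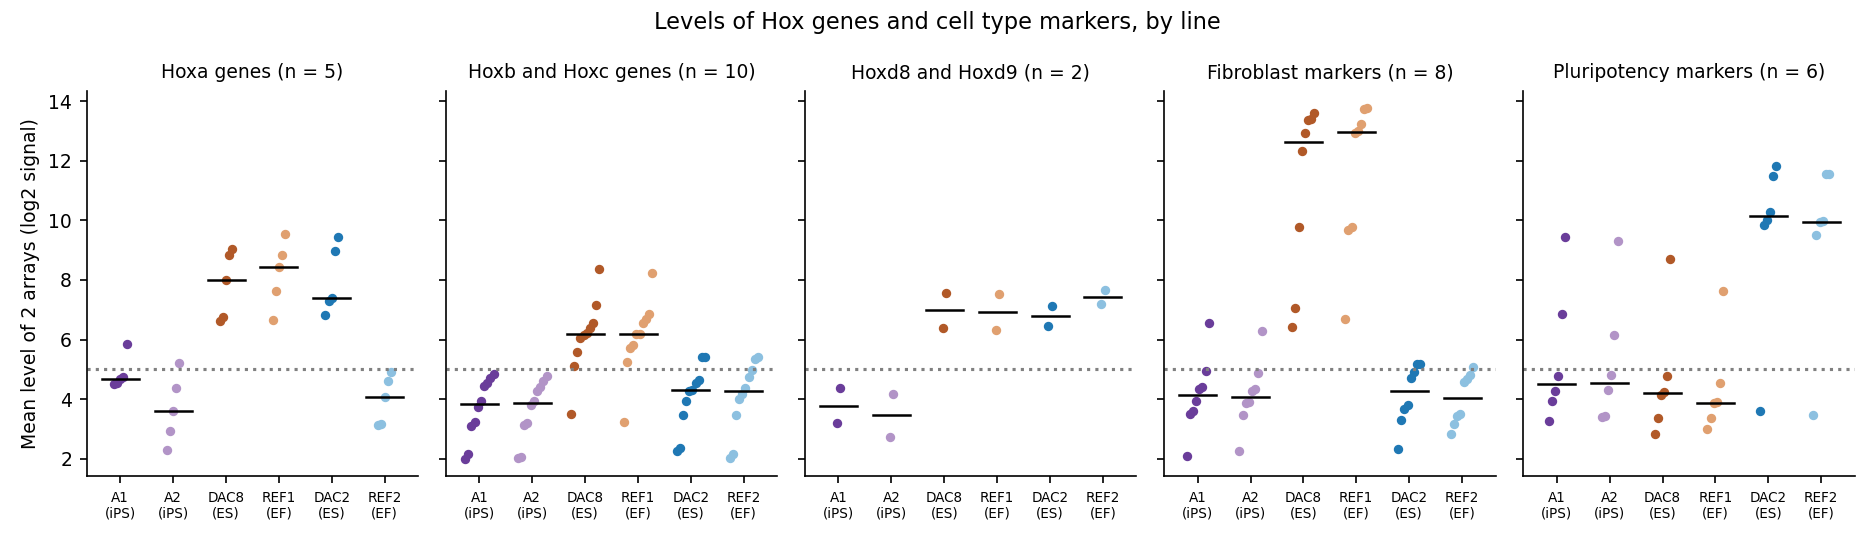
Mean log2 signal of 2 arrays by line for 5 Hoxa genes, 10 Hoxb and Hoxc genes, Hoxd8 and Hoxd9, 8 fibroblast markers and 6 pluripotency markers, with 1 point per gene, the median as a bar and a dotted line at 5. The fibroblast markers have medians of 12.6 and 13.0 in DAC8 and REF1 and 4.26 and 4.03 in DAC2 and REF2, while the Hoxa genes are above 5 in DAC2 as well and Hoxd8 and Hoxd9 in DAC2 and REF2.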

How the data were processed

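Expression was measured on 12 single-colour Affymetrix arrays. The authors deposited a log2 signal for each of 31099 probe sets, made with RMA and Partek 6.2 per the submitters' processing notes. That method subtracts background, aligns the arrays and combines the probes of a set, which compresses differences of dim genes. Whether all arrays were normalized together, and the genome build, are not given in the sources used here. Values were used as deposited, with array medians of 5.28 to 5.41.

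By the platform's gene table, 20832 probe sets had a single symbol, 436 several and 9831 none. Of a gene's probe sets, the one with the highest mean over the 12 arrays stood for it. Genes whose highest mean over a labelled cell type was under 5 were left out, 3708 of 14218. Groups are those of the labels throughout. One limma model (version 3.58.1, R 4.3.3) held the 6 lines as factor, with moderated variances and p-values adjusted by Benjamini-Hochberg over 10510 genes; calls are at adjusted p under 0.05. The fit was tested on simulated data. The number of arrays limits the precision.

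The 5 genes, the gene lists and the rules were chosen with earlier results of these data known, so the 5 have no test. Named were the 5 genes in every line, any other Hox gene called with a difference of at least 1 between DAC8 and REF1 or DAC2 and REF2, up to 3 called genes of each list with the largest difference in each of these, the 3 genes most correlated with each of the 5, and the markers. Alternatives were no filter, a filter at 6, a filter on the highest line mean, quantile normalization, equal medians, averaged probe sets, an intensity trend, the compared lines alone, a replicate block and each array left out. Whether replicate numbers pair the samples is not given in the labels, and the main model did not pair them. Over 15 pairs of lines, the deviations of same-numbered arrays correlated at -0.08 to 0.24, the highest for DAC2 with REF2. No 2 arrays of a line held the same values, with 2 to 32 identical values per pair. Promoters were searched in Python 3.11.15 with pandas 2.3.3.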

Additional observations from a re-analysis of the deposited data

How the results depend on the processing

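Of 35 differences of the 5 genes, 3 that lay near 0 took both signs under other settings: Hoxa10 and Hoxd8 between DAC8 and REF1, at -0.04 to 0.04 and -0.02 to 0.07, and Hoxa5 in the iPS lines minus REF2, at -0.10 to 0.002. No called value changed sign in the results recomputed. The count of genes called between DAC8 and REF1 was 1375 with only those lines in the fit, and 1192 to 2058 with 1 array left out. Between A1 and A2 it was 16 with only those lines, 357 with an intensity trend and 80 to 177 with 1 array left out. With 1 array left out it was 3812 to 4941 between DAC2 and REF2, and for the iPS lines 8006 to 8675 against DAC2, 8136 to 8687 against DAC8, 8183 to 8728 against REF1 and 8031 to 8645 against REF2.

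Of the other Hox genes, 0 passed between A1 and A2 with no filter, with equal array medians, or with only those lines, where Hoxa7 had limma adjusted p-values of 0.0685, 0.0506 and 0.178 and was the 1 with an unadjusted p under 0.05 in the reported fit. With no filter, 17 other Hox genes were tested and the iPS lines differed in 11 from DAC2, 13 from DAC8, 13 from REF1 and 10 from REF2. With the filter at 6, 5 of 5 passed against DAC8 and 5 of 5 against REF1, and with the filter on the highest line mean 13 of 13 passed against each; these filters change which genes are tested. With 1 array left out, 1 to 2 passed between DAC8 and REF1, 2 to 3 between DAC2 and REF2 and 0 to 1 between A1 and A2. The iPS lines then differed in 6 to 7 from DAC2, 8 to 11 from DAC8, 8 to 11 from REF1 and 5 to 7 from REF2. Of all 10510 genes in the reported fit, the iPS lines differed in 8635 from DAC2 and 8659 from DAC8. They differed in 8698 from REF1 and 8628 from REF2. Since most genes passed there, nothing is read from the counts of Hox genes that differed from the iPS lines.

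With the replicate number as a block, 2140 genes were called between DAC8 and REF1, 4977 between DAC2 and REF2 and 194 between A1 and A2, with 1, 2 and 1 other Hox genes. For the iPS lines it gave 8644 genes against DAC2, 8692 against DAC8, 8702 against REF1 and 8625 against REF2, with 6, 8, 8 and 6 other Hox genes. The labels do not tell if the numbers pair the samples, and 3 of 15 pairs of lines correlated above 0.1.

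Of 735 values of the 5 genes under other settings, 15 moved by more than the spread between arrays. Of 420 list counts, 81 moved by over 1.5 times. Causes were not tested. Levels under 5 limit what can be said of A1, A2 and, for the Hoxa genes, REF2. Equal medians shifted the median of all genes to -0.15 for the iPS lines minus DAC2, where it was -0.06.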

Other observations

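Under the filter on the highest line mean, 5 further Hox genes entered the fit: Hoxb6, Hoxc4, Hoxc8, Hoxc9 and Hoxd4. Hoxc8, a thoracic Hox gene, gave 6.98 and 7.35 in DAC8 and 6.68 and 6.72 in REF1, and at most 2.35 on every other array. The iPS lines were lower than DAC8 by 5.13 log2 units for Hoxc8, 3.98 for Hoxc9 and 3.06 for Hoxb6 (limma adjusted p = 4.81e-10, 2.2e-09 and 1.88e-08), genes that entered the fit through DAC8 and REF1. Between DAC8 and REF1 none of the 5 passed, and Hoxc8 was closest at 0.46 (limma adjusted p = 0.0556). Between DAC2 and REF2 none of the 5 passed, and Hoxd4 was closest at -0.45 (limma adjusted p = 0.0881). Hoxc4 had a pair of probe sets that disagreed: the one used for the gene stayed near 5 in all 6 lines, and the other was above 6 in DAC8 and REF1 and under 4 elsewhere.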
